A study of Mus musculus with 24 samples.

Results

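Aortas of Ppp3cb knockout (KO) mice that had received angiotensin II (AngII) were compared with aortas of KO control mice. The libraries were chosen by the genotype and treatment in their labels, and they make up 12 of the 24 libraries of the series. They fall into 4 groups of 3: KO control females, KO AngII females, KO control males and KO AngII males. The other 12 libraries are wildtype (WT) aortas in the same 4 kinds of group, and they enter here where the KO response is set against the WT response. All mice were 5 months old. The KO line was B6,129S6-Ppp3cbtm1Jmk/J, which carries a targeted mutation, and the labels name no promoter or cell type that would limit it. Osmotic minipumps delivered AngII at 500 ng per kg of body weight per min for 4 weeks. Whether control mice carried a pump is not stated in the labels, nor is it stated that each numbered replicate was a separate mouse, so p-values measure the spread between these libraries, part of which may be technical.

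Calcineurin is a phosphatase that calcium and calmodulin switch on and that sends NFAT transcription factors to the nucleus, and Ppp3cb codes for its beta catalytic subunit. AngII acts on the aortic wall mainly through its type 1 receptor on smooth muscle and adventitial cells, where it raises intracellular calcium, tone and the output of extracellular matrix. The wall also holds endothelium, resident immune cells, perivascular fat and the endings of sympathetic nerves, which release noradrenaline and neuropeptide Y and are wrapped by Schwann cells. RNA from the whole tissue mixes these sources, so fewer cells of a type and less RNA per cell cannot be told apart in what follows.

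The KO control female libraries stood apart from the other KO libraries before any comparison was made. They held 1523328, 2401264 and 1699541 counts, against 2535746 to 6352365 in the other 9 KO libraries. Olfactory and vomeronasal receptor genes, which are mostly silent outside sensory tissue, took 2053, 1047 and 1936 CPM (counts per 1000000, here of protein-coding counts) there, and 251 to 1103 CPM in the other 9. The repeat-like genes Gm10800, Gm10801 and Gm21738 took 7.75% to 34.5% of their counts and 0.666% to 6.95% of the others. Replicate 2 was the closest of the 3 to the rest in each of these measures. The main gene lists are therefore also given by sex, since the male comparison compares no female library, and with this group reduced to replicate 2 or with the receptor-gene share as a covariate.

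**Figure D1:**
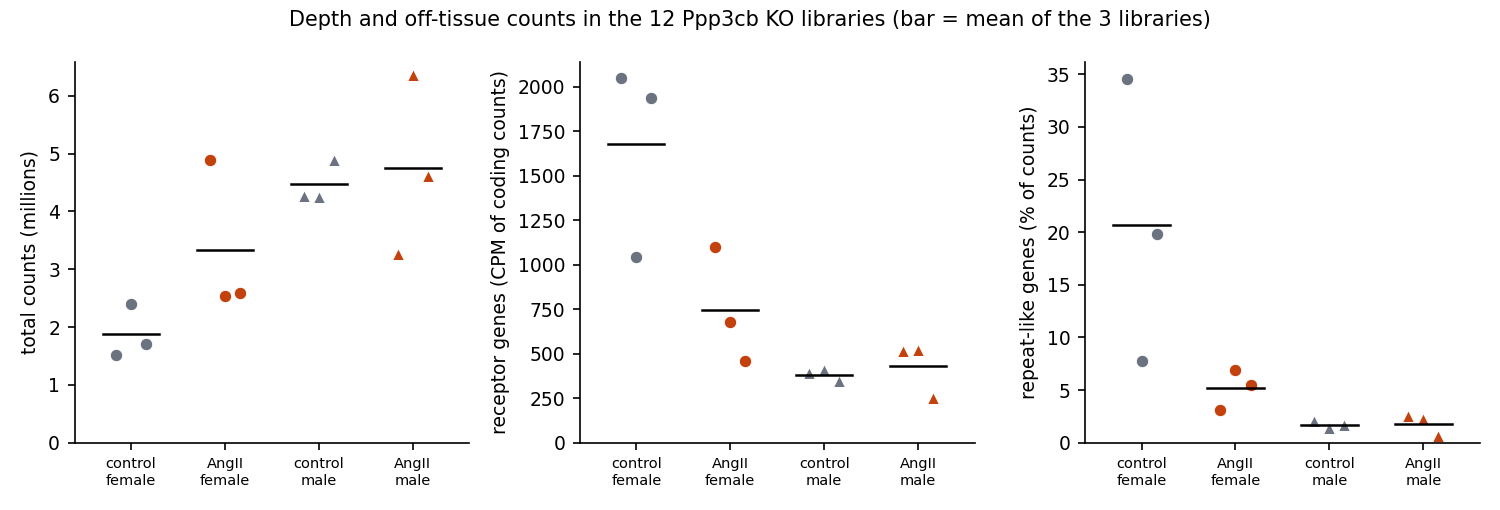
Total counts, receptor-gene CPM of protein-coding counts and the percentage of counts on repeat-like genes in the 12 KO libraries, by group; points are libraries and bars are means of 3. The KO control females lie lowest in total counts, between 1523328 and 2401264, and reach 2053 CPM of receptor genes.

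Markers of the aortic wall were present where they could be read. Smooth muscle myosin, Myh11, stood between 3598 and 9939 CPM in the 12 KO libraries and smooth muscle actin, Acta2, between 1391 and 6832 CPM, with endothelial Pecam1 at 163 to 647 CPM and fibroblast Pdgfra at 34.0 to 131 CPM. Perivascular fat was present, with Adipoq at 34.5 to 90.3 CPM and brown fat Ucp1 at 25.3 to 84.0 CPM. Tagln, Cnn1 and Cdh5 lie in parts of the genome where no gene has a count in this table, and they were treated as not measured. Ppp3cb itself (chromosome 14, 20499364 to 20546573) stood at 11.2, 20.2 and 30.3 CPM in KO (lowest, median and highest of 12) and at 28.1, 39.5 and 69.4 CPM in WT. The difference was -0.96 log2, and 10 of 12 KO libraries lay below every WT library (two-sided permutation test with 100000 resamples, p = 1e-05, the smallest it can give). Gene-level counts cannot separate the targeted part of the gene from the rest.

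The first question was what 4 weeks of AngII changed in aortas of Ppp3cb KO mice. One gene passed the test, the synaptic gene Snap25, and it fell. Around it, most other genes of sympathetic nerve had lower values after AngII, and most genes of the extracellular matrix had higher ones, but no single one of these passed. edgeR's quasi-likelihood test, with sex as a covariate, called 1 of 15055 genes at an adjusted p under 0.05, which is 0.00664% of the genes tested. An unadjusted p under 0.05 was found for 598 genes (3.97%), 297 with a higher value after AngII (1.97%) and 301 with a lower one (2%). Differences are given throughout as AngII minus control on a log2 scale with their SE, and the median of a list is the median of these differences. Over all genes tested the median was 0.02 log2 and 52.6% had a value above 0. DESeq2 on the same design called 14 genes, all with higher values and none of them Snap25, for which it gave no adjusted p. In data simulated for this comparison, edgeR called 12 of 100 genes changed 2-fold and 59 of 100 changed 4-fold, so a 2-fold change was usually not detectable with 6 libraries against 6.

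Snap25 (chromosome 2, 136713453 to 136782428) encodes a protein of the machinery that fuses vesicles with the nerve terminal membrane. It stood at 8.19, 2.82 and 11.2 CPM in the 3 control females, at 4.57, 14.3 and 26.8 CPM in the control males, at 0.261, 0 and 0.581 CPM in the AngII females and at 0 in all 3 AngII males. All 6 AngII libraries stood below the 6 controls, which was true of 15 of the 15055 genes (0.0996%). A random split of 12 libraries, 6 against 6, would separate about this share of genes in each direction. The lack of overlap, here and for genes below, is therefore a description and not support for a change. The difference was -6.01 ± 0.94 log2 (SE; adjusted p = 0.0348). In males the 3 control libraries held 190 counts and the AngII libraries none, which makes Snap25 at least 66.8-fold lower there against a floor of 3 counts over the group. In females 41 counts stood against 3. The call did not survive every change of samples: of the 12 fits that leave out 1 library it was kept in 4, without KO control female replicate 1 or 2, KO AngII female replicate 3 or KO control male replicate 1 (adjusted p between 0.0197 and 0.047). It was lost without KO control female replicate 3, KO AngII female replicate 1 or 2, KO control male replicate 2 or 3, or any AngII male (adjusted p between 0.0897 and 0.265). The log2 value stayed between -7.03 and -5.60 in those 12 fits. With the control females reduced to replicate 2 it was -6.02 (adjusted p = 0.243).

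Genes of sympathetic neurons were low in the same libraries. Of the 21 genes listed, 16 passed the count filter, 14 of them with a value below 0. Snap25 was the 1 that was called, and 11 had an unadjusted p under 0.05 in the lower direction, against 2% of all genes. This list and those below were chosen with earlier results of these data known, so such shares are descriptions and not tests. Some members also passed the count filter only through control libraries, where they are high. The median of the 16 genes was -2.01 log2, -1.24 in females and -2.65 in males (the same with genes at 0 in a group set at their bound), beside 0.02 over all genes. The summed level of the list was 245, 78.0 and 83.2 CPM in the control females and 143, 177 and 382 CPM in the control males. After AngII it was 105, 56.1 and 49.1 CPM in females and 52.3, 37.0 and 41.7 CPM in males. The male groups did not overlap, and the female groups did. Among single genes, 4.98% of all those tested had all 3 AngII males below the 3 control males. Leaving out each library in turn kept the median within -2.23 to -1.64, and with the control females reduced to replicate 2 it was -2.04, with 0 of 16 genes above 0.

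The genes that make and carry the nerve's transmitters showed this pattern at its clearest in males. Dbh, the enzyme that turns dopamine into noradrenaline, stood at 10.6, 26.3 and 54.2 CPM in the control males and at 0 in all 3 AngII males, at least 133-fold lower against the floor of 3 counts. In females it was at 18.9, 0 and 0.558 CPM in controls and 0, 4.43 and 0.872 CPM after AngII, so the female groups overlapped. Npy, neuropeptide Y, a cotransmitter of noradrenaline, stood at 18.0, 18.5 and 23.9 CPM in the control males and at 0 in the AngII males, at least 88.6-fold lower. Its female levels were 12.0, 0 and 0 CPM in controls and 0, 1.48 and 0 CPM after AngII, with most libraries of either group at 0. Th, tyrosine hydroxylase, which starts the synthesis of noradrenaline and was singled out here after its values were seen, was at 3.61, 3.70 and 8.37 CPM in control males and 0, 0 and 0.892 CPM in AngII males. Scg2, a granule protein of neurons and endocrine cells, was at 1.68, 5.55 and 6.16 CPM in control males and 0 in AngII males, at least 19.7-fold lower. Over both sexes the fitted values were -4.38 ± 1.25 log2 (adjusted p = 0.876) for Dbh, -5.40 ± 1.30 log2 (adjusted p = 0.72) for Npy, -5.50 ± 1.39 log2 (adjusted p = 0.866) for Scg2 and -2.96 ± 1.23 log2 (adjusted p = 1) for Th, none of them called by edgeR. With a group at 0 these fitted values depend on the prior count and are not bounds. Fitted to the males alone, Dbh, Npy and Snap25 were called (adjusted p = 0.00164, 0.000725 and 0.0184). All 3 passed the count filter through control libraries, where they are high, so these calls are not separate support for a change.

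**Figure D2:**
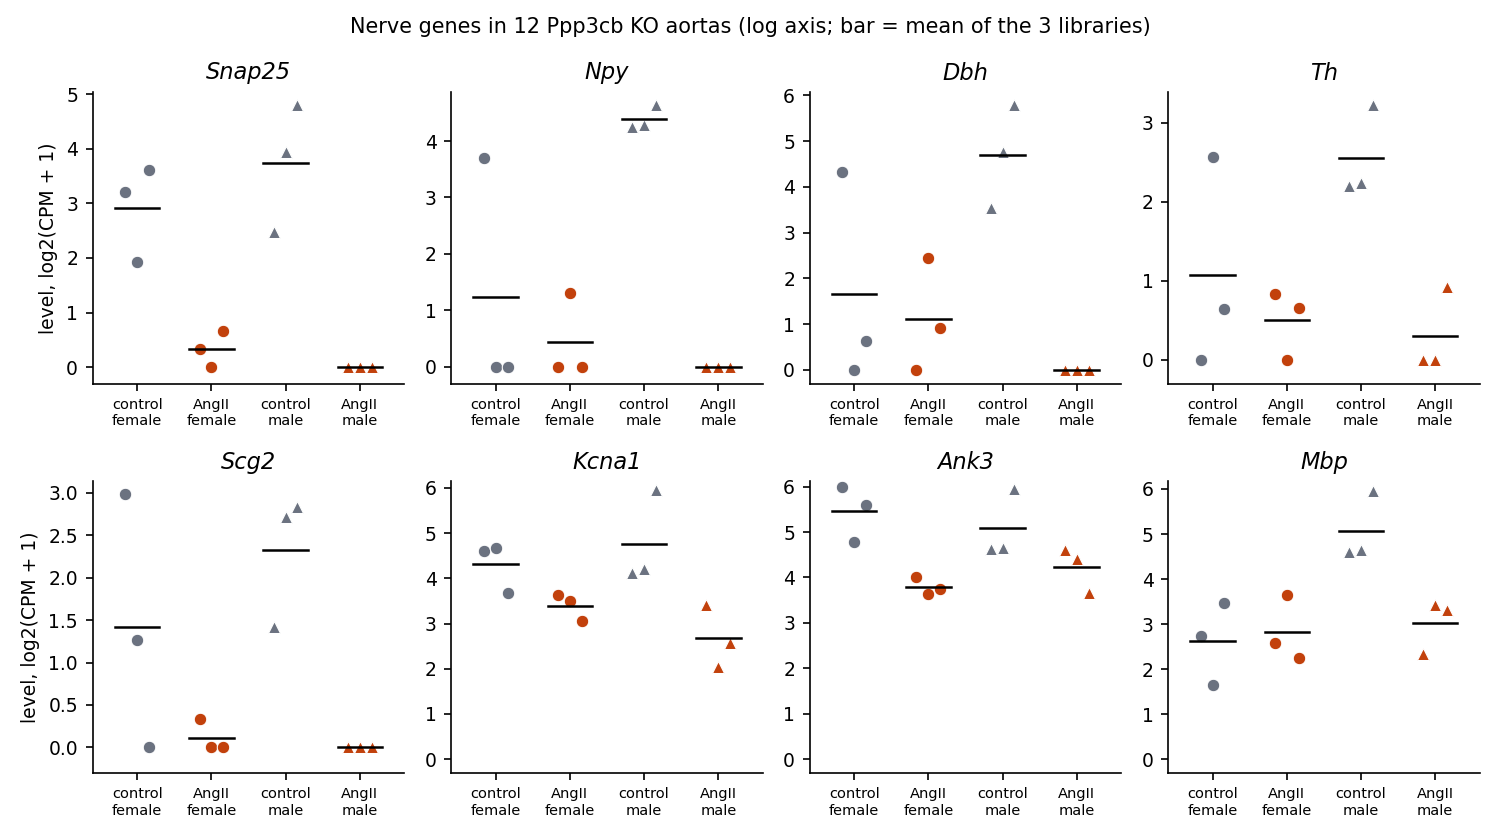
Levels of 8 nerve genes in the 12 KO libraries on a log2(CPM + 1) axis; circles are females, triangles are males, grey is control, orange is AngII and bars are means of 3. Snap25 lies at or near 0 in all 6 AngII libraries, and the control males lie above the AngII males in each of the 8 genes.

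Ion channels and scaffolds of the axon had smaller differences that reached both sexes. Kcna1, a voltage-gated potassium channel of axons (chromosome 6, 126640397 to 126646384), stood at 11.7, 20.3 and 60.8 CPM in controls (lowest, median and highest of 6 libraries) and 3.14, 8.46 and 11.5 CPM after AngII. No AngII library reached the lowest control, and the difference was -1.74 ± 0.43 log2 (adjusted p = 0.866). Ank3, ankyrin G, which anchors channels at the start of the axon and in other cell membranes, stood at 23.8, 37.0 and 63.0 CPM in controls and 11.4, 13.8 and 23.4 CPM after AngII, again without overlap, a difference of -1.38 ± 0.32 log2 (adjusted p = 0.707). Rab3c, a small GTPase of secretory vesicles, was at 7.22, 17.6 and 54.8 CPM in controls and 2.90, 6.52 and 12.8 CPM after AngII, and the groups overlapped (-1.58 ± 0.41 log2, adjusted p = 0.876). Reln, which encodes the secreted glycoprotein reelin, was at 34.7, 31.8 and 36.3 CPM in control females, 7.82, 8.49 and 15.1 CPM in AngII females, 25.5, 18.9 and 34.7 CPM in control males and 21.5, 20.5 and 11.6 CPM in AngII males. Its female groups were separate, which held for 5.94% of all genes in this direction, and its male groups overlapped, with -1.12 ± 0.32 log2 (adjusted p = 0.876) over both.

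Markers of Schwann cells, which wrap these axons, had values below 0 for most genes, with less separation. Of 15 listed genes 12 passed the filter, 10 with a value below 0, and the median was -0.83 log2 (-0.89 in females, -0.52 in males). In the lower direction 2 had an unadjusted p under 0.05, against 2% of all genes. Mbp, myelin basic protein, stood at 23.3, 24 and 61.1 CPM in control males and 4.08, 9.74 and 8.92 CPM in AngII males, with 5.67, 2.12 and 10.0 CPM in control females and 4.95, 11.4 and 3.78 CPM in AngII females. The male groups were separate and the female groups overlapped, with a difference of -2.23 ± 0.61 log2 in males and 0.20 ± 0.65 log2 in females. KO control male replicate 3 held the highest level of Snap25, Dbh, Npy, Th, Kcna1 and Mbp in the control males, and without it the median of the sympathetic list was -1.64 log2. Its summed Schwann cell level was also the highest, 363 CPM, against 149 to 178 CPM in AngII males. In females the summed levels overlapped, at 127, 135 and 112 CPM in controls and 130.1, 133 and 178 CPM after AngII.

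Most genes of the extracellular matrix, the collagens, elastic fibres and binding proteins that give the wall its strength, had higher values after AngII. Over 6 lists of matrix genes, 107 genes in all, 98 passed the filter and 85 of those had a value above 0. None was called by edgeR, and 29 had an unadjusted p under 0.05 in the higher direction and 0 in the lower one, against 1.97% and 2% of all genes. These lists too were chosen with earlier results of these data known, so the shares describe them and are not a test. The median of the 98 was 0.40 log2. It was 0.74 in females and 0.08 in males, the larger value being in the sex whose control libraries stood apart. All 14 genes that DESeq2 called had higher values. They were Postn, Mgp, Gdf10, Sparc, Nov, Fn1, Sod3, Col18a1, Col15a1, Itga3, Mfge8, Ltbp1, Sulf1 and Nupr1, of which Sulf1 and Nupr1 are named after their values were seen.

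Matricellular proteins and glycoproteins, which tie cells to the matrix and regulate its assembly, had the highest median of the 6 lists. Of 23 genes, all of which passed the filter, 20 were above 0 with a median of 0.61 log2 (1.04 in females, 0.20 in males). In the higher direction 10 had an unadjusted p under 0.05, against 1.97% of all genes. Postn, periostin (chromosome 3, 54361109 to 54391037), stood at 458, 517 and 442 CPM in control females and 1443, 1495 and 1007 CPM in AngII females. In males it was at 760.4, 496 and 535 CPM in controls and 908, 826 and 870.2 CPM after AngII. All 6 AngII libraries stood above the 6 controls, which was true of 19 of the 15055 genes (0.126%), again near the share of a random split. The difference of 1.01 ± 0.23 log2 missed the threshold in edgeR (adjusted p = 0.703) and passed it in DESeq2 (0.96, adjusted p = 0.000328). Tnc, tenascin C, a glycoprotein of remodelling matrix named after its values were seen, was the other matrix gene without overlap, at 123, 192 and 232 CPM in controls and 238, 262 and 395 CPM after AngII (0.61 ± 0.21 log2, adjusted p = 1).

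Mgp, matrix Gla protein, an inhibitor of vascular calcification (chromosome 6, 136872435 to 136875823), stood at 348, 442 and 714 CPM in controls (lowest, median and highest of 6 libraries) and 553, 1012 and 1594 CPM after AngII. The difference was 1.12 ± 0.25 log2 (adjusted p = 0.703), and it was nearly the same in females (1.21 ± 0.36 log2) and males (1.02 ± 0.36 log2). Fn1, fibronectin, stood at 2139, 4236 and 2358 CPM in control females and 7458, 8792 and 3177 CPM in AngII females, and at 4726, 3683 and 3427 CPM in control males and 12719, 6149 and 4598 CPM in AngII males. Both sexes overlapped, in males by a single library on each side, and the difference over both was 1.07 ± 0.31 log2 (adjusted p = 0.876). Fn1 lay outside the rule for named genes and was chosen after its values were seen. Sparc, a collagen-binding glycoprotein, was at 301, 597 and 826 CPM in controls and 761, 984 and 1292 CPM after AngII (0.86 ± 0.23 log2, adjusted p = 0.876), with 1.31 ± 0.30 log2 in females and 0.42 ± 0.29 log2 in males. Nov, a matricellular protein also called Ccn3, was at 179, 214 and 343 CPM in controls and 328, 389 and 445 CPM after AngII (0.75 ± 0.20 log2, adjusted p = 0.876). Of these genes, Mgp, Fn1 and Nov had like values in both sexes and Sparc had a value in females more than double its male one in log2 units, without a call on that difference (-0.89 ± 0.41 log2, adjusted p = 0.951).

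**Figure D3:**
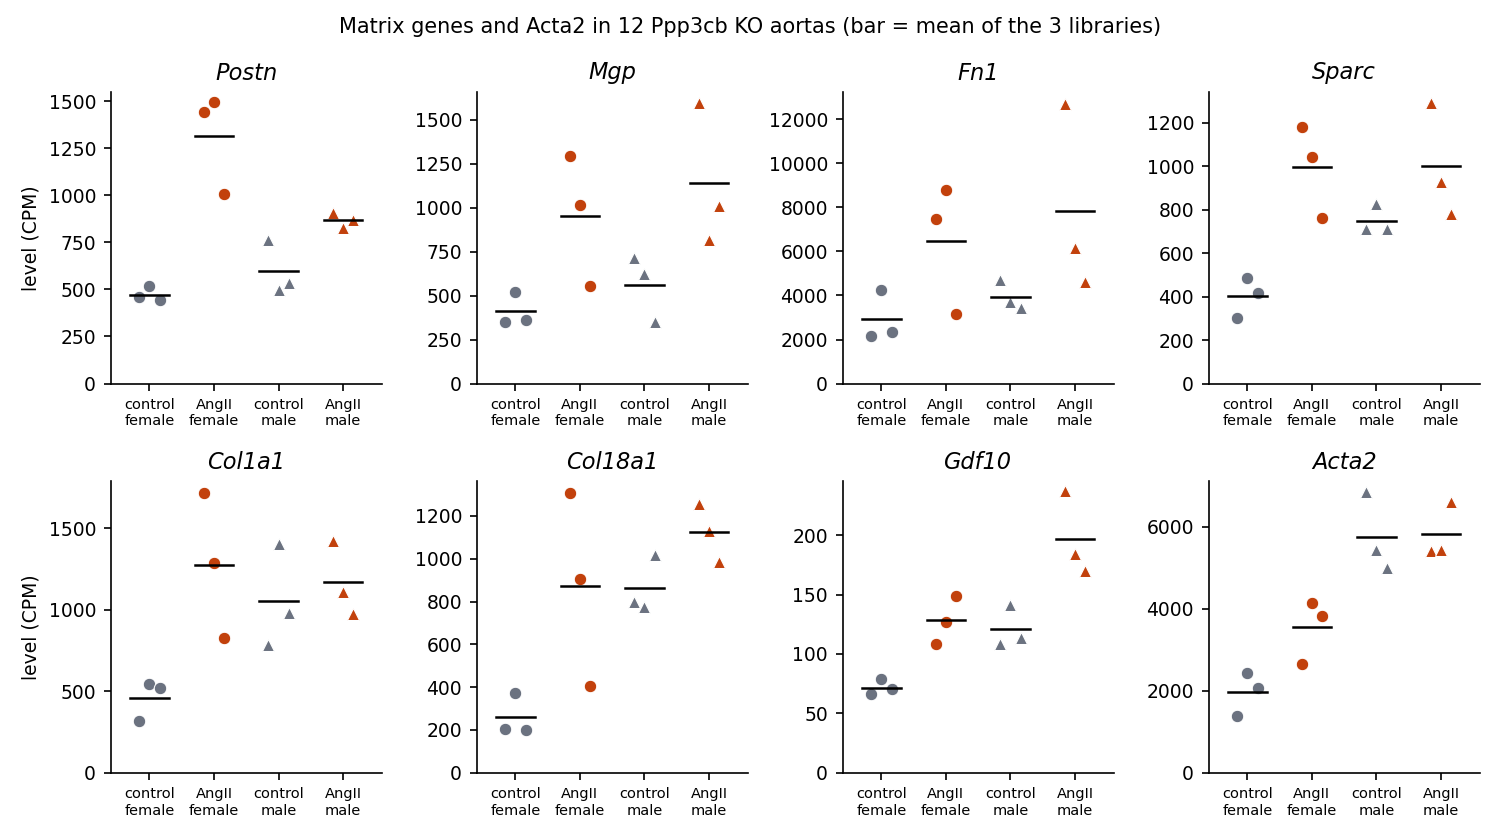
Levels in CPM of 7 genes of the matrix and its surroundings and of smooth muscle actin, Acta2, in the 12 KO libraries; circles are females, triangles are males, grey is control, orange is AngII and bars are means of 3. Postn shows no overlap between AngII and control libraries, and the control females are the lowest group for Acta2, between 1391 and 2430.0 CPM.

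Most collagen chains had values above 0 in females and values near 0 in males, and none was called. Of 16 interstitial collagen genes 14 passed the filter, 13 were above 0 and the median was 0.53 log2, made up of 1.10 in females and 0.06 in males. Col1a1, which codes for a chain of type I collagen (chromosome 11, 94936224 to 94953042), stood at 315, 545 and 518 CPM in control females and 1717, 1284 and 827 CPM in AngII females. In males it was at 781, 1404 and 979 CPM in controls and 1423, 1108 and 976 CPM after AngII, with full overlap. Its partner chain Col1a2 had values of 1.11 ± 0.28 log2 in females and 0.16 ± 0.28 log2 in males. Col18a1, whose C-terminal fragment is endostatin, was at 201, 574 and 1016 CPM in controls and 407, 1056 and 1306 CPM after AngII (1.06 ± 0.30 log2, adjusted p = 0.876), with 1.75 ± 0.37 log2 in females and 0.38 ± 0.36 log2 in males. Col15a1, a collagen beneath vessels and muscle, was at 168, 278 and 395 CPM in controls and 329, 442 and 653 CPM after AngII (0.78 ± 0.23 log2, adjusted p = 0.876). For the collagen chains of the basement membrane and their partners, 12 of 13 tested genes were above 0 (median 0.45), and Col4a2 had a difference of 1.25 ± 0.37 log2 in females and 0.27 ± 0.36 log2 in males.

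Elastic fibres and the enzymes that finish collagen followed the same split. Of 17 tested elastic fibre genes 14 were above 0 (median 0.43, 0.78 in females and 0.21 in males). Eln, elastin, was at 86.3, 264 and 120.0 CPM in control females and 1168, 409 and 136 CPM in AngII females, with a female difference of 1.86 ± 0.53 log2. The groups overlapped, and KO AngII female replicate 1 was far above the other 5 female libraries. Loxl2, which crosslinks collagen and elastin, was at 13.4, 39.5 and 47.5 CPM in controls and 43.0, 55.4 and 83.4 CPM after AngII (0.89 ± 0.29 log2, adjusted p = 0.955), Mfap4, a microfibril glycoprotein, had a value of 0.82 ± 0.29 log2 (adjusted p = 1) and Fbln5, which organises elastin, one of 0.60 ± 0.23 log2 (adjusted p = 1). Collagen processing enzymes were above 0 in 13 of 14 cases (median 0.44, 0.85 in females and 0.04 in males). Among these, Bmp1, which cuts the propeptide from collagen, had a value of 1.14 ± 0.34 log2 in females and 0.08 ± 0.32 log2 in males. Fkbp14, a chaperone of collagen folding that was chosen after its values were seen, showed no overlap, at 6.89, 12.7 and 15.1 CPM in controls and 17.8, 22.2 and 35.5 CPM after AngII, and had like values in females (1.13 ± 0.48 log2) and males (1.10 ± 0.46 log2). Its lack of overlap, shared with 0.126% of all genes in this direction, was known when it was chosen. Proteoglycans had a median of 0.13, with 13 of 17 above 0; the cartilage proteoglycan Acan was at 14.5, 15.8 and 29.3 CPM in controls and 17.2, 38.3 and 90.2 CPM after AngII (1.14 ± 0.35 log2, adjusted p = 0.876).

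The summed levels show where the split between the sexes lies. Interstitial collagens summed to 2332, 3667 and 3336 CPM in the control females and to 8855, 7059 and 4733 CPM in the AngII females. Control males held 5536, 7325 and 7143 CPM and AngII males 8710.4, 6472 and 6317 CPM, so the control females were the low group and the other 3 groups overlapped. Contractile smooth muscle genes, which are not matrix, had the same layout. Control females held 12225 to 17697 CPM of these, AngII females 16460.3 to 26914 CPM, control males 25265 to 30971 CPM and AngII males 23771 to 33029 CPM. With the control females reduced to replicate 2, the medians were 0.27 for interstitial collagens, 0.17 for basement membrane, 0.40 for glycoproteins, 0.26 for elastic fibres and 0.22 for processing enzymes, with 13 of 14, 10 of 13, 17 of 23, 16 of 17 and 12 of 14 genes above 0. Leaving out each library in turn, the median was within 0.34 to 0.65 for interstitial collagens, 0.28 to 0.52 for elastic fibres and 0.29 to 0.50 for processing enzymes, the lowest being without KO control female replicate 1 for the first and last and without KO AngII female replicate 1 for elastic fibres. The part that the depth and off-tissue counts of these libraries play in the female values was not tested.

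Growth factors and proteases that act in the matrix were mostly above 0 over both sexes, without a call. Gdf10, a secreted member of the TGF-beta superfamily (chromosome 14, 33923587 to 33937983), stood at 66.2, 78.7 and 70.3 CPM in control females, 109, 127 and 149 CPM in AngII females, 108, 141 and 114 CPM in control males and 237, 184 and 169.7 CPM in AngII males. Within each sex the groups were separate, which held for 7.11% of all genes in females and 3.99% in males in this direction, and the difference was 0.77 ± 0.18 log2 (adjusted p = 0.72). Serpine2, an inhibitor of thrombin and other serine proteases, was at 105, 229.9 and 281 CPM in controls and 243, 312 and 404 CPM after AngII (0.63 ± 0.23 log2, adjusted p = 1). Of 22 tested matrix proteases and inhibitors 17 were above 0 (median 0.18), with 0.49 in females and -0.01 in males, where 11 of 22 were above 0. The control females reduced to replicate 2 gave 0.07 (12 of 22). The membrane protease Mmp14 was on the other side, at 39.7, 55.0 and 88.7 CPM in controls and 36.0, 41.2 and 55.3 CPM after AngII (-0.48 ± 0.22 log2, adjusted p = 1). The TGF-beta pathway had 16 of 18 tested genes above 0 (median 0.26, 0.42 in females and 0.13 in males, and 0.11 with the control females reduced to replicate 2), and Ltbp1, which stores latent TGF-beta in the matrix, had a difference of 0.65 ± 0.22 log2 (adjusted p = 1).

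Igfbp2, which binds insulin-like growth factors, had the largest difference among the 10 genes chosen for their higher values. It stood at 3.15, 2.82 and 0 CPM in control females and 7.94, 8.32 and 6.89 CPM in control males. After AngII it was at 111, 9.96 and 0.291 CPM in females and 84.3, 13.7 and 19.0 CPM in males. The AngII males all lay above the control males, whereas KO AngII female replicate 3 lay within the control females, and the difference was 3.11 ± 0.79 log2 (adjusted p = 0.866). Igf2r, the receptor that clears insulin-like growth factor 2, had a difference of 0.86 ± 0.26 log2 (adjusted p = 0.876), and 9 of the 11 tested genes of the insulin-like growth factor axis were above 0 (median 0.13). That median was within 0.06 to 0.38 leaving out each library in turn, 0.38 without KO control male replicate 2 and 0.36 with the receptor-gene share (7 of 11 above 0). Among other secreted or surface proteins, Sod3, extracellular superoxide dismutase, was at 78.2, 177 and 169 CPM in control females, 528, 622 and 281 CPM in AngII females, 664, 627 and 464 CPM in control males and 758, 720.4 and 734 CPM in AngII males (1.04 ± 0.29 log2, adjusted p = 0.876). Qsox1, a secreted sulfhydryl oxidase, had a difference of 0.92 ± 0.25 log2 (adjusted p = 0.876), Itga3, an integrin subunit for laminin, at 0.81 ± 0.23 log2 (adjusted p = 0.876), and Mfge8, whose fragment medin gathers in the aortic media, at 0.83 ± 0.23 log2 (adjusted p = 0.876). Sod3 was lowest in the control females, with a female difference of 1.75 ± 0.34 log2 and a male one of 0.33 ± 0.33 log2. Sulf1, which trims sulfate from heparan sulfate, was at 283, 302 and 402 CPM in controls and 331, 517 and 746 CPM after AngII, and the stress-induced chromatin protein Nupr1 at 170.2, 259 and 343 CPM in controls and 316, 411 and 713 CPM after AngII.

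The calcineurin genes themselves differed little within KO. Ppp3cb was at 11.3, 20.8 and 29.0 CPM in controls and 15.1, 20.5 and 30.2 CPM after AngII (0.12 ± 0.28 log2, adjusted p = 1). Ppp3ca, the alpha catalytic subunit, had a difference of -0.25 ± 0.22 log2, Ppp3cc, the gamma catalytic subunit, at 0.37 ± 0.49 log2 and the regulatory subunit Ppp3r1 at 0.32 ± 0.58 log2. Rcan1, an inhibitor of calcineurin that calcineurin and NFAT induce, stood at 0, 7.76 and 6.14 CPM in control females, 15.1, 10.3 and 7.85 CPM in AngII females, 10.6, 8.32 and 12.8 CPM in control males and 17.4, 10.6 and 7.81 CPM in AngII males. The female groups were separate by a narrow margin and the male groups overlapped, with 0.66 ± 0.52 log2 (adjusted p = 1) over both. Its relative Rcan2 had a difference of 0.32 ± 0.20 log2, and the signs of Ppp3cb, Ppp3r1 and Rcan2 were not the same in every setting tried. Of the 16 tested genes of calcineurin, NFAT and their inhibitors 12 were above 0 over both sexes (median 0.17), and none had an unadjusted p under 0.05. The direction was not the same in each sex, with 12 of 16 above 0 in females (median 0.42) and 4 of 16 in males (median -0.15). The median was -0.13 with the receptor-gene share as a covariate (4 of 16 above 0) and -0.01 with the control females reduced to replicate 2 (6 of 16).

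Genes of the angiotensin system and of contraction gave no call. Among 12 tested genes of the renin-angiotensin system 6 were above 0 (median 0.01). Ace, which makes AngII, was at 195, 309.9 and 469 CPM in controls and 297, 479 and 593 CPM after AngII (0.62 ± 0.23 log2, adjusted p = 1), and Rgs2, which dampens signalling from the AngII receptor, had a difference of 0.51 ± 0.36 log2. Of 19 tested contractile genes 16 were above 0 (median 0.21), with a median of 0.53 in females and of -0.08 in males, where 4 of 19 were above 0. With the control females reduced to replicate 2 the median was -0.02 (9 of 19) and with the receptor-gene share -0.10 (6 of 19). Acta2 was at 1391, 2430.0 and 2074 CPM in control females, 2651, 4145 and 3825 CPM in AngII females, 6832, 5432 and 4978 CPM in control males and 5416, 5419.8 and 6599 CPM in AngII males, so control females were the lowest group. Mylk, the kinase that triggers contraction, had a value of 0.45 ± 0.24 log2 (adjusted p = 1). Ptgis, which makes prostacyclin, had a difference of 0.59 ± 0.21 log2 (adjusted p = 1). Sgk1, a kinase that corticosteroids and salt stress induce and that was chosen after its values were seen, was at 6.30, 24.9 and 32.0 CPM in controls and 34.2, 40.7 and 46.5 CPM after AngII without overlap (0.96 ± 0.29 log2, adjusted p = 0.876). That lack of overlap, found for 0.126% of all genes in this direction, was seen before the gene was chosen.

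Most interferon-response genes had lower values after AngII in KO, mainly in females. Of 30 tested interferon-response genes 4 were above 0 and 26 below, with a median of -0.64 log2 (-0.94 in females and -0.13 in males). None was called, and 5 had an unadjusted p under 0.05 in the lower direction, against 2% of all genes. Gbp4, a guanylate-binding protein that interferon gamma induces, stood at 408, 36.7 and 136 CPM in control females and 40.7, 22.9 and 44.5 CPM in AngII females. In males it was at 51.3, 87.1 and 19.0 CPM in controls and 55.3, 65.4 and 21 CPM after AngII, with overlap in each sex. Gbp7 was at 22.2, 53.7 and 123 CPM in controls and 9.59, 28.0 and 43.8 CPM after AngII (-0.91 ± 0.37 log2, adjusted p = 1) and Ifit1, an antiviral protein, at 5.29, 17.3 and 61.4 CPM in controls and 3.78, 8.18 and 14.5 CPM after AngII (-1.27 ± 0.53 log2, adjusted p = 1). With the receptor-gene share as a covariate the interferon median was 0.03 with 19 of 30 genes above 0, and with the control females reduced to replicate 2 it was -0.18 with 11 of 30 above 0.

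Most markers of antigen presentation and of leukocytes had values below 0 over both sexes, and these depended on single libraries. The 8 tested MHC class II genes had medians of -1.44 in females and -0.11 in males. Their summed level was 478, 219 and 565 CPM in control females and 98.8, 193 and 82.8 CPM in AngII females, without overlap, and 257, 1341 and 53.4 CPM in control males and 395, 713 and 77.2 CPM in AngII males, with overlap. H2-Ab1, a chain of MHC class II, stood at 131, 41.3 and 117 CPM in control females, 19.0, 31.4 and 16.3 CPM in AngII females, 40.4, 267 and 8.86 CPM in control males and 60.9, 129 and 8.70 CPM in AngII males. Its chaperone Cd74 was at 27.8, 212 and 816 CPM in controls and 44.2, 78.8 and 361 CPM after AngII (-1.18 ± 0.55 log2, adjusted p = 1). Macrophage markers, all 22 of which passed the filter, were below 0 in 18 cases, with a median of -0.63 (-0.80 in females and -0.18 in males). Their summed level was 381, 246 and 413 CPM in control females, 214, 265 and 231 CPM in AngII females, 229.8, 936 and 162 CPM in control males and 484, 505 and 215 CPM in AngII males. KO control male replicate 2 was the highest of the 12, and without it the macrophage median was 0.06 and the MHC class II median -0.11, in place of -0.72 with it. Csf1r, the receptor that macrophages need to survive, had a difference of -0.52 ± 0.36 log2 (adjusted p = 1). Lymphocyte markers were below 0 in 8 of 9 tested (median -0.78, -1.97 in females and 0.10 in males), with -0.45 without KO control male replicate 2. The receptor-gene share as a covariate gave medians of 0.05 for lymphocyte markers, -0.04 for macrophage markers and 0.14 for MHC class II, with 5 of 9, 10 of 22 and 5 of 8 genes above 0. With the control females reduced to replicate 2 these medians were -0.40, -0.31 and -0.24. Lck, a kinase of T cells, was at 24.6, 4.59 and 5.02 CPM in control females and 2.61, 0 and 0 CPM in AngII females.

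Chemokines included a pair with low counts and lower values after AngII. Ccl11, eotaxin, which draws eosinophils, stood at 16.4, 22.2 and 46.9 CPM in control females, 5.22, 10.3 and 11.9 CPM in AngII females, 18.8, 31.4 and 14.3 CPM in control males and 6.68, 10.9 and 12.9 CPM in AngII males. No AngII library reached the lowest control, and the difference was -1.35 ± 0.36 log2 (adjusted p = 0.876). Ccl7, a monocyte chemokine, was at 4.41, 0 and 5.02 CPM in control females and 0.963, 6.47 and 0 CPM in control males, and had 0 counts in all 6 AngII libraries. Against a floor of 3 counts over the group it was at least 8.57-fold lower in females and 11.3-fold lower in males, from 16 and 32 control counts. Of the 32 male counts 28 came from KO control male replicate 2. KO control female replicate 2 and KO control male replicate 3 were at 0, like the AngII libraries. Of the 17 tested genes for cytokines, chemokines and adhesion 15 were below 0 (median -0.13). The sign of that median turned without KO control male replicate 2 (0.11, 10 of 17 above 0) and with the receptor-gene share (0.06, 10 of 17 above 0), and it was within -0.40 to 0.11 leaving out each library in turn. Dnaja3, a chaperone of mitochondria, was also among the genes named for the lower direction, at 15, 15.6 and 34.6 CPM in controls and 4.68, 7.70 and 10.7 CPM after AngII without overlap (-1.29 ± 0.34 log2, adjusted p = 0.876).

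Other cell types and stress programs gave smaller differences. Endothelial markers were below 0 in 12 of 15 tested (median -0.36, -0.32 in females and -0.22 in males), and Ptprb, the endothelial phosphatase that restrains Tie2, was at 310.1, 367 and 703 CPM in controls and 234, 265 and 438 CPM after AngII (-0.54 ± 0.22 log2, adjusted p = 1). Adipocyte markers were above 0 in 8 of 12 (median 0.26), with Adipoq, adiponectin, at 0.56 ± 0.22 log2 (adjusted p = 1) and the fat-cell protease Cfd at 0.75 ± 0.31 log2 (adjusted p = 1). Ppargc1a, a coactivator of mitochondrial genes, stood at 6.74, 17.8 and 30.7 CPM in controls and 4.01, 8.14 and 10.5 CPM after AngII (-1.24 ± 0.37 log2, adjusted p = 0.876). Cardiac muscle markers, a check for adjoining heart tissue, had a median of -0.42 over 8 tested, 3 of them above 0. Their summed level had a median of 195 CPM in controls and 199 CPM after AngII. It was highest in KO AngII female replicate 1, at 298 CPM. Among those above 0 were Myl4 (0.94 ± 0.70 log2) and Ryr2 (0.30 ± 0.22 log2). Tnni3, cardiac troponin I, was at 60.5, 0 and 1.67 CPM in control females and Mybpc3, cardiac myosin-binding protein C, at 27.1, 4.59 and 1.67 CPM, so the highest level of each lay in KO control female replicate 1. AngII libraries held 0 to 8.08 CPM of Tnni3 and 0 to 2.32 CPM of Mybpc3.

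Transcription factors that stimuli induce lay on both sides of 0. Of 23 immediate early genes, all of which passed the filter, 10 were above 0 (median -0.06, 0.37 in females and -0.28 in males). Fosl1, a partner of Jun, was an exception without overlap, at 0, 2.68 and 4.41 CPM in controls and 5.54, 7.92 and 15.1 CPM after AngII (1.84 ± 0.64 log2, adjusted p = 1). Such separation held for 0.126% of all genes in this direction. Egr3 had 0 counts in the 3 control females, 4.69, 4.06 and 2.91 CPM in AngII females, and 7.94, 2.31 and 4.68 CPM and 7.05, 7.60 and 6.91 CPM in control and AngII males. Circadian clock genes were above 0 in 12 of 16 tested (median 0.31), and the clock repressor Bhlhe40 had a difference of 0.61 ± 0.24 log2 (adjusted p = 1). Chaperones of the endoplasmic reticulum, where collagen is folded, were above 0 in 15 of 17 tested (median 0.18, 0.39 in females and 0.01 in males). The time of day at which tissue was taken is not given in the labels. The heat shock gene Hspa1b was at 19.9, 32.6 and 54.8 CPM in controls and 13.4, 20.9 and 31.4 CPM after AngII (-0.75 ± 0.30 log2, adjusted p = 1), in a list of 13 cytosolic heat shock chaperones of which 6 were above 0.

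The second comparison asked whether females and males responded alike. With 1 coefficient per group in a fit to the 12 libraries, edgeR called no gene in either sex: in females 1366 genes had an unadjusted p under 0.05 (9.07%) and the smallest adjusted p was 0.281, and in males there were 283 (1.88%) with a smallest adjusted p of 0.189. A fit to the 6 male libraries alone called 3, the Snap25, Dbh and Npy given above. The test of the difference between the sexes called 0 of 15055 genes, with 768 at an unadjusted p under 0.05 (5.1%) and a smallest adjusted p of 0.528. DESeq2 called 75 genes in females, 1 in males and 11 for the difference, and limma-voom 1, 0 and 0. Without KO control female replicate 2 the female count by edgeR was 114 in place of 0, and without KO control female replicate 1 or KO AngII female replicate 3 it was 1 or 3. Without KO control female replicate 1 the male count was 3, and without KO control female replicate 2 the count for the difference was 1, so the number of calls depends on which of these libraries are used.

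The 5 genes with the smallest p-values in each sex had no gene in common. In females they were Postn (1.48 ± 0.28 log2), Sod3 (1.75 ± 0.34 log2), the Wnt-binding protein Sfrp2 (1.39 ± 0.28 log2), Col18a1 (1.75 ± 0.37 log2) and the small GTPase Arf5 (3.18 ± 0.67 log2). Sfrp2 stood at 22.1, 30.7 and 26.8 CPM in control females and 68.8, 67.5 and 72.9 CPM in AngII females, while control and AngII males overlapped at 87.1, 90.6 and 73.1 and 91.3, 108 and 71.4 CPM. In males they included Snap25 (-8.74 ± 1.48 log2), Dbh (-9.73 ± 1.97 log2), Npy (-9.14 ± 2.00 log2) and Ano4 (4.51 ± 1.04 log2), a member of the anoctamin family of membrane proteins; the fitted values of Snap25, Dbh and Npy are set against AngII males at 0 and are not bounds. Ano4 was at 19.5, 44.1 and 31.8 CPM in control females and 3.91, 4.43 and 16.3 CPM in AngII females, and at 0, 0.231 and 0 CPM in control males and 3.34, 2.31 and 2.23 CPM in AngII males. It had the smallest p for the difference between the sexes, 6.46 ± 1.23 log2 (adjusted p = 0.528), with opposite directions in each sex and the high levels in the control females. After it came Arf5 (-3.73 ± 0.86 log2, adjusted p = 0.822), the tubulin Tuba1a (-1.55 ± 0.38 log2, adjusted p = 0.888), the calcium-dependent membrane-binding protein Cpne5 (4.70 ± 1.2 log2, adjusted p = 0.888) and the immune-cell membrane protein Tmem176a (-6.78 ± 1.79 log2, adjusted p = 0.888). For each of these 5 the control females held the highest or the lowest mean level of the 4 groups.

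**Figure D4:**
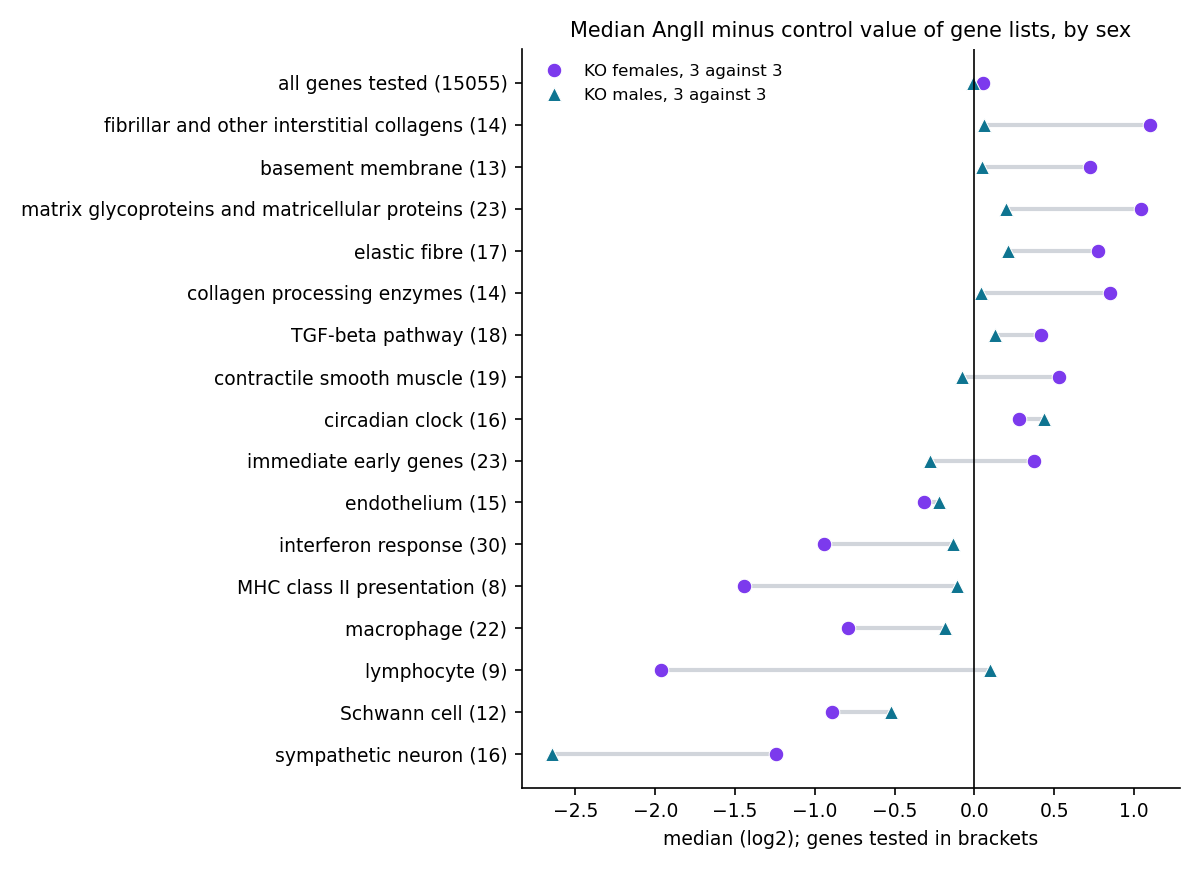
Median AngII minus control difference (log2) of 16 gene lists and of all 15055 genes tested, in KO females (circles) and KO males (triangles), with the number of tested genes in brackets. Matrix lists lie to the right in females, at 0.73 to 1.10 for 5 of them, and near 0 in males, and the sympathetic neuron list lies to the left in both.

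The third comparison asked where the KO response differs from that of WT aortas. In a fit to all 24 libraries the difference between the responses called 0 of 16316 genes by edgeR, with 657 at an unadjusted p under 0.05 (4.03%) and a smallest adjusted p of 1. DESeq2 and limma-voom also called 0, and edgeR called 2 without KO control female replicate 2. In the same fit edgeR called 34 genes for AngII in WT (0.208%) and 0 in KO, where Snap25 had an adjusted p of 0.106. A call in WT and none in KO does not show a difference, since the test of the difference itself passed for no gene. Of the 98 tested matrix genes 18 were called in WT, and the median of the 98 was 0.63 log2 in WT and 0.40 in KO, with 71 of 98 lower in KO. Over all 15055 genes that the KO comparison tested, 7157 were lower in KO.

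Interstitial collagens showed the widest gap among the matrix lists. Their median was 1.07 in WT and 0.53 in KO, and all 14 tested had a smaller value in KO, with a median difference of -0.52. Col1a1 had a difference of 1.46 ± 0.23 log2 in WT and 0.81 ± 0.22 log2 in KO, a difference of -0.66 ± 0.32 log2 (unadjusted p = 0.0465, adjusted p = 1). Sparc had a difference of 1.47 ± 0.22 log2 and 0.86 ± 0.21 log2 (-0.61 ± 0.30 log2, unadjusted p = 0.0507, adjusted p = 1), Postn at 1.44 ± 0.23 log2 and 1.00 ± 0.22 log2 (-0.44 ± 0.31 log2, unadjusted p = 0.174, adjusted p = 1), and Acan at 2.48 ± 0.42 log2 and 1.14 ± 0.41 log2 (-1.34 ± 0.57 log2, unadjusted p = 0.0258, adjusted p = 1). Basement membrane genes, by contrast, had medians of 0.47 in WT and 0.46 in KO, and collagen processing enzymes 0.53 and 0.45. Igfbp2 had a difference of 3.73 ± 0.68 log2 in WT and 3.29 ± 0.70 log2 in KO, Mgp at 1.36 ± 0.30 log2 and 1.11 ± 0.30 log2, and Gdf10 at 0.57 ± 0.17 log2 and 0.76 ± 0.17 log2, each with a difference smaller than its SE. Rcan1 had a difference of 1.44 ± 0.34 log2 in WT and 0.66 ± 0.37 log2 in KO (-0.78 ± 0.51 log2, unadjusted p = 0.132, adjusted p = 1).

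Sympathetic nerve genes were low after AngII in both genotypes. The list's median was -1.91 in WT and -1.97 in KO in the same fit, with 1 of 16 genes above 0 in WT. Gene by gene, the median difference between the responses was -0.66 log2, with 11 of 16 lower in KO, beside 0.03 over all genes. Snap25 had a difference of -2.40 ± 0.92 log2 in WT, where its adjusted p was 0.542, and at -6.62 ± 1.21 log2 in KO, a difference of -4.22 ± 1.57 log2 (unadjusted p = 0.0118, adjusted p = 1). Dbh had a difference of -1.61 ± 1.01 log2 in WT and -5.82 ± 1.30 log2 in KO, and Npy at -2.55 ± 1.17 log2 and -6.11 ± 1.52 log2. Their KO values are fitted against males with no counts and are not bounds. Rab3c had a difference of -3.02 ± 0.63 log2 in WT, where it was called, and -1.59 ± 0.56 log2 in KO. For Schwann cell markers the WT median was -0.05 and the KO median -0.84.

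Macrophage and antigen-presentation genes lay on opposite sides of 0 in the 2 genotypes. Macrophage markers had a median of 0.81 in WT, with 20 of 22 above 0, and of -0.66 in KO, and 21 of 22 were lower in KO. For the 8 tested MHC class II genes the medians were 0.69 and -0.77, with all 8 lower in KO. The KO values rest in part on KO control male replicate 2, without which the KO macrophage median was 0.06. With the receptor-gene share the KO medians were -0.04 for macrophage markers and 0.14 for MHC class II. With the control females reduced to replicate 2 they were -0.31 and -0.24. Cd74 had a difference of 0.82 ± 0.48 log2 in WT and -1.18 ± 0.47 log2 in KO (-2.01 ± 0.67 log2, unadjusted p = 0.00557, adjusted p = 1), and Csf1r at 0.70 ± 0.34 log2 and -0.54 ± 0.34 log2 (-1.24 ± 0.48 log2, unadjusted p = 0.0145, adjusted p = 1). Hspa1b had a difference of 1.17 ± 0.38 log2 in WT and -0.76 ± 0.39 log2 in KO (-1.92 ± 0.54 log2, unadjusted p = 0.00122, adjusted p = 1), and Egr3 at -0.45 ± 0.61 log2 and 3.67 ± 0.98 log2 (4.13 ± 1.17 log2, unadjusted p = 0.00146, adjusted p = 1). The KO value of Egr3 is fitted against control females with 0 counts and is not a bound. In the fit to the KO libraries alone it was 2.01 ± 0.90 log2. Genes of fatty acid and triglyceride metabolism, active in perivascular fat, were above 0 in 3 of 23 cases in WT (median -0.22) and in 18 of 23 in KO (median 0.15), and 0 of the 23 were lower in KO. In fits to the KO libraries alone the median was 0.03 in females and 0.19 in males. It was 0.01 with the control females reduced to replicate 2 and 0.03 with the receptor-gene share (14 of 23 above 0). Leaving out each KO library in turn, it was within 0.05 to 0.32. Respiratory chain genes had medians of -0.13 in WT and 0.04 in KO. The 5 genes with the smallest p for the difference, Asna1, Kdm8, Hist1h4n, Tal1 and Pcmtd2, had higher values in KO. In KO control females Kdm8 and Hist1h4n had 0 counts, and Asna1 stood at 3.15, 8.47 and 9.49 CPM there, below the 14.5 CPM of the lowest of the other 9 KO libraries. Tal1 stood at 7.56, 4.23 and 5.02 CPM and Pcmtd2 at 17.0, 20.1 and 23.4 CPM there, within the range of the other 9 in each case. The part of the control females in these 5 differences was not tested.

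**Figure D5:**
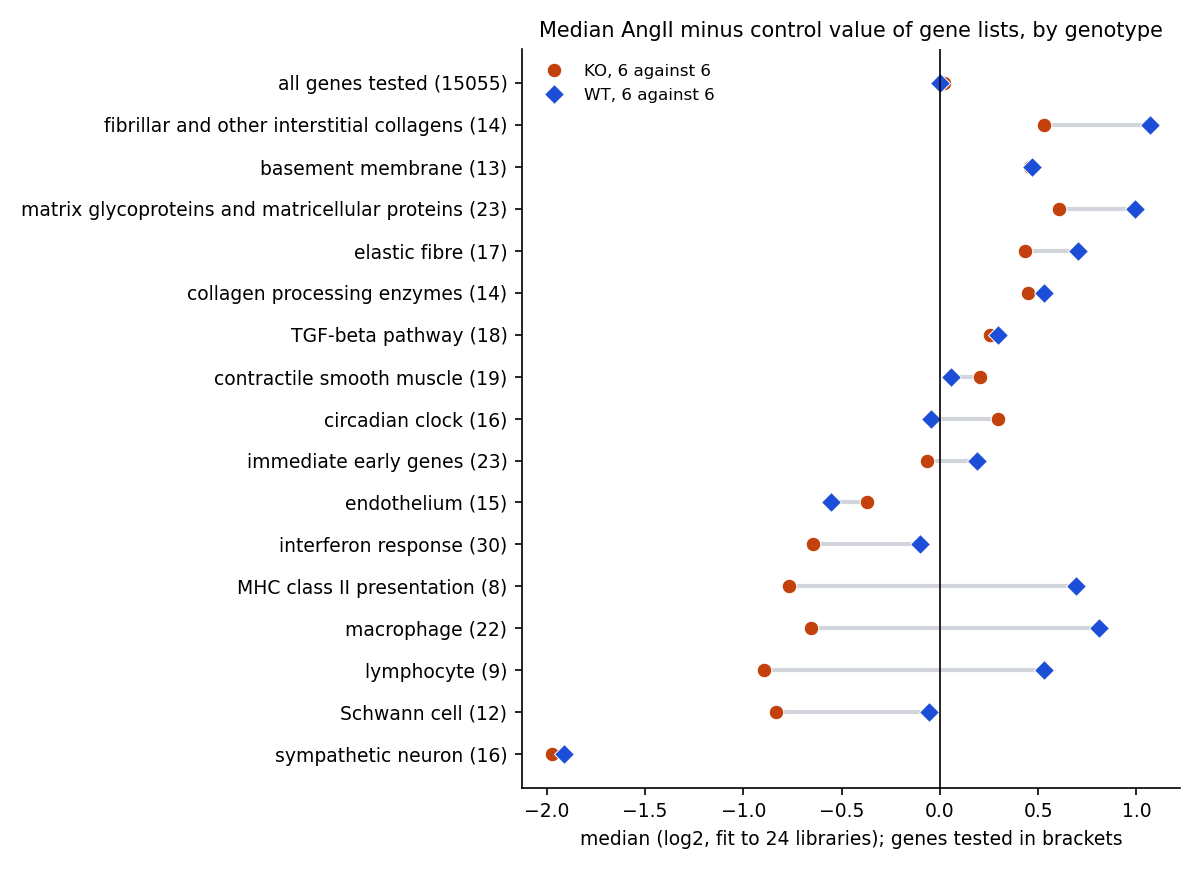
Median AngII minus control difference (log2) of 16 gene lists and of all genes in KO (circles) and WT aortas (diamonds), from 1 fit to 24 libraries, with the number of tested genes in brackets. Interstitial collagens lie at 1.07 in WT and 0.53 in KO, sympathetic neuron genes near -1.91 and -1.97, and macrophage genes at 0.81 and -0.66.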

How the data were processed

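RNA isolated from aorta in TRIzol was cleared of DNA with DNase and of ribosomal RNA with RiboMinus and made into Illumina libraries, per the labels' protocols. The deposited table holds whole-number read counts per gene that the authors made for 24 libraries. The build mm10 and the tools featureCounts 1.4.6, Bowtie2 2.2.5, TopHat2 2.0.14 and cutadapt 1.8.1 are named in the submitters' processing notes; strandedness is not given in the sources used here, so reads of overlapping and antisense genes cannot be told apart. Of 41128 gene IDs 40254 matched GENCODE M21, the source of coordinates. Chromosomes 9, X, Y and MT and the end of chromosome 8 hold 0 counts in every library and were treated as not measured.

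Genes were kept by edgeR's filter (minimum count 10, total 15), leaving 15055, and tested with edgeR 4.0.16 in R 4.3.3: TMM scaling, quasi-likelihood F test and Benjamini-Hochberg adjustment at 0.05. The 12 KO libraries were fitted with sex and treatment, each sex and their difference with 1 coefficient per group, and the KO minus WT response with 8 groups of 24 libraries. CPM use TMM library sizes. Alternatives were DESeq2 1.42.0, limma-voom 3.58.1, other scalings, filters, covariates and samples, and a replicate block. The reduction of the KO control females to replicate 2 was chosen after the data were seen. The test was tried on simulated counts for the 15055 genes.

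Named genes were the 10 of each direction with the largest called change, filled up by smallest p, with a mean log2 CPM of at least 1 and the same sign in both sexes; up to 4 genes of each list with the smallest p; the calcineurin genes; and the 5 smallest p of each sex, of their difference and of the KO minus WT response. Genes with systematic names, pseudogenes, receptor genes of the senses and small RNA genes were counted but not named, and some others that the rule selects are not reported here. The members and the 41 lists were chosen with earlier results of these data known.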

Additional observations from a re-analysis of the deposited data

Results flagged for a closer look

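In 15 of 146 sets of 6 libraries (73 of the genes described, in controls and after AngII), 1 library lay far from the other 5, with a gap to the nearest of them beyond Dixon's critical value for sets of 6. Chance flags about 1 in 20 groups. KO control female replicate 1 held 0 CPM of the calcineurin inhibitor Rcan1 (others 6.14 to 12.8), 3.78 CPM of Rgs2 (others 15.5 to 22.4) and 27.1 CPM of the cardiac gene Mybpc3 (others 1.48 to 4.59). KO control female replicate 3 held 31.3 CPM of Ppp3ca (others 48.7 to 61.1) and 0 CPM of Igfbp2 (others 2.82 to 8.32).

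KO AngII female replicate 3 was the library set apart most often after AngII. It held 281 CPM of Sod3 (others 528 to 758), 145 CPM of Mfge8 (others 288 to 389) and 407 CPM of Col18a1 (others 906 to 1306), so it was low in 3 genes that were higher in the other AngII libraries. It was high in the endothelial gene Ptprb, at 438 CPM (others 234 to 295), and in Mybpc3, at 2.32 CPM (others 0 to 0.369).

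The other libraries were set apart in 1 gene each. Postn stood at 760 CPM in KO control male replicate 1 (others 442 to 535), below the lowest AngII library. The adipocyte gene Cfd stood at 48.5 CPM in KO control male replicate 3 (others 145 to 183), the library with the most nerve transcripts. Gbp7 stood at 9.59 CPM in KO AngII male replicate 3 (others 26.9 to 43.8). Npy at 1.48 CPM in KO AngII female replicate 2 and Scg2 at 0.261 CPM in KO AngII female replicate 1 were the lone AngII libraries above 0, from 4 counts and 1 count.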

How the results depend on the processing

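For AngII in KO, 1 gene was called. The count was 1 with DESeq2 size factors, without sex, and with only protein-coding genes other than receptor and repeat-like genes scaled and tested. It was 0 with at least 50 counts in 3 libraries (which leaves Snap25 out), with limma-voom, with all 24 libraries and in females alone. It was 52 without a count filter, 14 with the DESeq2 test, 2 with the receptor-gene share as covariate, 3 in males alone, and 0 to 1 leaving out 1 library at a time. In females, where 0 were called, the count was 144 without a filter, 75 with DESeq2, 1 with limma-voom and 0 to 114 leaving out 1 library. In males it was 14 without a filter, 1 with DESeq2, 3 with control females reduced to replicate 2 and 0 to 3 leaving out 1 library. For males minus females it was 28 without a filter, 11 with DESeq2 and 0 to 1 leaving out 1 library, and for KO minus WT 12 without a filter and 0 to 2 leaving out 1 library. The cause of these shifts was not tested. The settings were run for 73 of the genes described. These leave out Ano4, Arf5, Tuba1a, Cpne5 and Tmem176a, whose fitted values had opposite signs in females and males. Asna1, Kdm8, Hist1h4n, Tal1 and Pcmtd2 are left out too. Of the 73 genes 68 kept their sign in every setting run. The sign turned for Ppp3cb in females alone (-0.25) and without KO control male replicate 3 (-0.000435), its range leaving out 1 library being -0.000435 to 0.256. It turned for Ppp3r1 with limma-voom (-0.23), the receptor share (-0.16), males alone (-0.41), control females reduced to replicate 2 (-0.35) and without KO control female replicate 3 (-0.00727), with -0.00727 to 0.87 leaving out 1 library. It also turned for Rcan2 with the receptor share (-0.00304) and in males alone (-0.0534), for Mbp in females alone (0.17) and for Gbp4 with the receptor share (0.10). Same-numbered control and AngII libraries correlated at -0.0203 to 0.0821 in their deviations from the group means. These values gave no sign of a pairing by number, but with 3 libraries per group they cannot exclude one. With the replicate block 0 genes were called. Depth was lowest in the KO control females, where a gene with 0 counts in the group could still stand at up to 3 counts over the 3 libraries.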
